A study of Mus musculus with 8 samples.

Results

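Of the 8 arrays of the series, 4 hold RNA from IL-15-/- TAX-LUC tail tumors, 2 of them macrophage-rich and 2 neutrophil-rich. The groups were chosen by 1 measured value, the probe set of C1qa, which encodes a chain of the complement protein C1q made by macrophages. An array with C1qa above 9 on the log2 scale was taken as macrophage-rich and an array below 9 as neutrophil-rich. The macrophage-rich arrays held C1qa at 10.73 and 11.43 and the neutrophil-rich arrays at 7.68 and 8.16, so that the values nearest to 9 were 10.73 and 8.16. C1qa was left out of everything that follows. Each of the 2 mice gave 1 array of each kind. In the mouse of replicate 2, 12 months old and called mouse 2 here, the macrophage-rich array carried the label CD16/32HI and the neutrophil-rich array the label CD16/32LO. In the mouse of replicate 1, 14 months old and called mouse 1, the labels ran opposite to the grouping: the array labelled CD16/32HI was neutrophil-rich, and the array labelled CD16/32LO was macrophage-rich. The labels were left as deposited, and no reason for this was tested.

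TAX-LUC mice carry the Tax oncogene of HTLV-1 under the human granzyme B promoter, which is active in NK cells and cytotoxic T cells, and a firefly luciferase gene under the HTLV-1 long terminal repeat, which Tax switches on. They develop lymphoma of large granular lymphocytes with tail tumors that neutrophils infiltrate, and the tumors arose without treatment. In IL-15-/- mice, derived from a C57BL/6 line and crossed to the mixed C57BL/6 and FVB background of TAX-LUC mice, a PGK-Neo cassette replaces some of the Il15 exons, while the 4 arrays used for comparison came from IL-15+/+ TAX-LUC mice of 14 months (replicate 1) and 12 months (replicate 2). Per the labels, CD16/32HI cells are malignant and CD16/32LO cells are tumor infiltrating. The study describes the CD16/32HI cells as enriched in malignant large granular lymphocytes, and sorted both populations from tail tumors with an antibody to CD16/32. Tax and luciferase have no probe set named here.

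Macrophages are long-lived phagocytes. They take up dying cells and debris through scavenger and lectin receptors, break them down in lysosomes, display peptides on MHC class II molecules and remodel the matrix around them. Neutrophils are short-lived granulocytes that leave the bone marrow with preformed granules, respond to G-CSF and to CXC chemokines, and release inflammatory mediators on arrival in a tissue. Both descend from a common myeloid precursor that depends on the transcription factor PU.1.

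The values are log2 RMA signals, 1 probe set was kept for each of 19937 genes, and a level can be compared for 1 gene between arrays but not between genes. Where a level is set beside the array median over all genes, this is only a rough guide. It does not show that a gene is present or absent. By definition as many genes lie below an array's median as above it. The share of all genes below it on every IL-15-/- array was not counted. All differences below are log2 values of the macrophage-rich minus the neutrophil-rich array of the same mouse, so that a difference of 1 is 2-fold. Because C1qa chose the arrays, these differences are given as a description with no test, for mouse 1 and mouse 2 in turn, and each is also the value without the other mouse. Exactly equal probe set values (11 to 106 for a pair of arrays) marked 3 sets of arrays, with 0 such values across sets. Both arrays of a mouse lay in the same set and the 2 mice in different sets, so levels of mouse 1 and mouse 2 may lie on separately normalized scales. In sorted bulk RNA a smaller number of cells of a type and less RNA per cell cannot be told apart. Xist, the RNA of the inactive X chromosome, was at 10.08 or higher on the IL-15-/- arrays and at 4.64 or lower on the IL-15+/+ arrays, so that sex and genotype cannot be told apart.

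Macrophage genes and neutrophil genes separated the arrays in the same direction in both IL-15-/- mice. Of 19937 genes, 604 (3.03%) were at least 2-fold higher in the macrophage-rich array of both mice and 373 (1.87%) at least 2-fold higher in the neutrophil-rich array of both. Of these, 110 and 70 reached 4-fold in both mice, and 7 and 18 reached 8-fold. The number at least 2-fold one way in one mouse and 2-fold the other way in the other was 0. A further 248 genes reached 2-fold only in mouse 1, of which 240 (96.8%) had the same sign in mouse 2. Another 374 reached it only in mouse 2, of which 364 (97.3%) had the same sign in mouse 1. Of all 19937 genes, 6576 were above 0 in both mice and 7216 below 0 in both. The differences ran from -4.56 to 3.37 in mouse 1 and from -5.00 to 3.68 in mouse 2. Across genes, which are not independent replicates and share their arrays, the differences of the 2 mice had a Pearson r of 0.842.

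**Figure D1:**
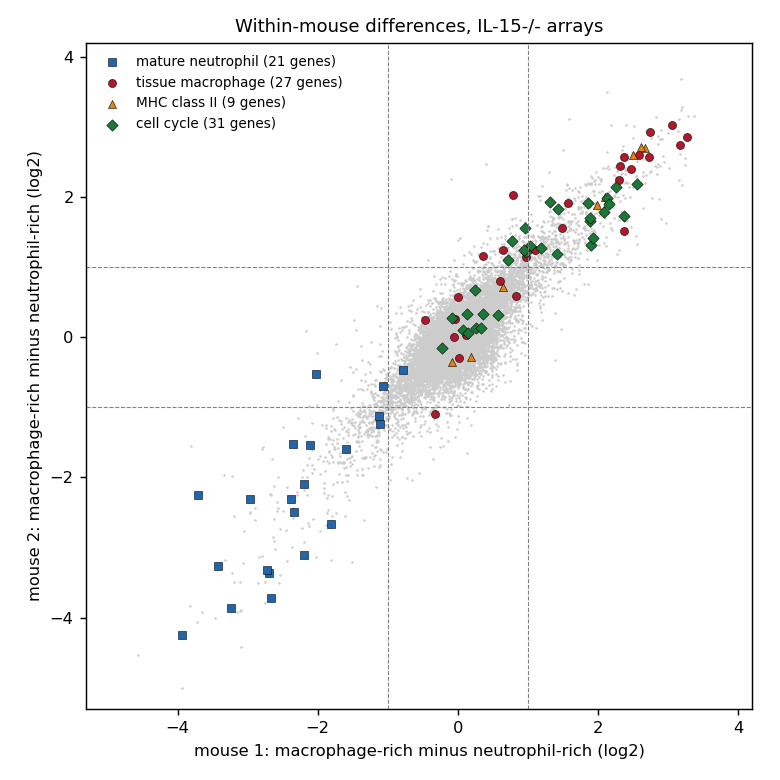
Within-mouse differences (log2, macrophage-rich minus neutrophil-rich array) of 19937 genes in grey, with mouse 1 on the x axis, mouse 2 on the y axis, 4 gene lists as coloured points and dashed lines at 2-fold. The mature neutrophil genes lie in the lower left and reach -4.25 in mouse 2, while the macrophage, MHC class II and cell cycle genes extend to the upper right.

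The sorting antibody recognizes CD16, encoded by Fcgr3, and CD32, encoded by Fcgr2b, and of these only Fcgr2b differed by 2-fold between the arrays of both mice. Fcgr2b, the inhibitory Fc gamma receptor, was at 10.97 in the macrophage-rich and 9.13 in the neutrophil-rich array of mouse 1 and at 10.82 and 8.87 in those of mouse 2. The array of mouse 1 that was labelled CD16/32HI therefore held the lower Fcgr2b value of its pair. Fcgr3 was at 11.07 and 10.86 in mouse 1 and at 11.37 and 11.14 in mouse 2, differences of 0.21 and 0.23. Fcgr1, the high-affinity receptor of macrophages, was higher in the macrophage-rich arrays by 2.73 and 2.57. Fcgr4 had differences of -0.42 and -0.66, and Fcer1g, the signaling chain shared by activating Fc receptors, of -0.27 and -0.23. Il15 was at 5.45 and 6.31 in the macrophage-rich and neutrophil-rich array of mouse 1 and at 5.22 and 6.54 in mouse 2. Its probe set also covers exons that the cassette leaves in place, so it does not check the knockout.

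The 10 named genes with the highest differences in both mice were Hpgd, Mgl2, Ms4a4a, Mmp13, Klrb1b, Anpep, Mrc1, Ccl12, Abca9 and Scpep1. Mgl2, a galactose-type lectin of macrophages and dendritic cells, was at 9.38 in the macrophage-rich and 6.19 in the neutrophil-rich array of mouse 1 and at 9.81 and 6.14 in those of mouse 2, a mean difference of 3.43 or 10.8-fold. Mrc1, the macrophage mannose receptor, was at 11.45 and 8.40 in mouse 1 and at 11.41 and 8.38 in mouse 2, a mean of 8.22-fold. Both genes were chosen by their differences, so the gap between the 2 kinds of array follows from the choice. Hpgd, which inactivates prostaglandins, differed by 3.19 and 3.28, Anpep, an aminopeptidase of the cell surface, by 3.15 and 3.12, and Ms4a4a, a tetraspan protein of macrophages, by 3.18 and 3.23. Mmp13, a collagenase, was at 9.20 and 5.92 in mouse 1 and at 9.82 and 6.67 in mouse 2. Klrb1b, a lectin-like receptor first described on NK cells, differed by 3.37 and 3.15, and Scpep1, a serine carboxypeptidase, by 2.90 and 2.96. Abca9, an ABC transporter, was at 8.95 and 5.95 in mouse 1 and at 8.90 and 5.99 in mouse 2.

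**Figure D2:**
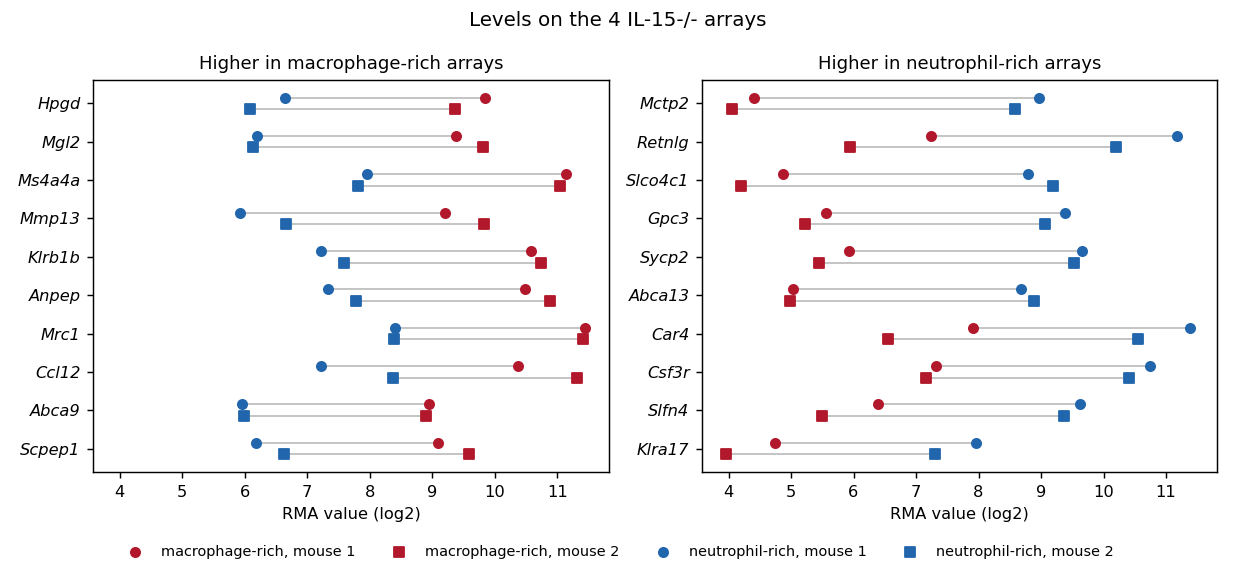
RMA values (log2, x axis) of the 10 named genes with the highest (left) and lowest (right) differences in both IL-15-/- mice on the 4 arrays, with red for macrophage-rich, blue for neutrophil-rich, circles for mouse 1, squares for mouse 2 and a grey line joining the arrays of a mouse. The genes were chosen by these differences, so the gap between the red and the blue points follows from the choice. Mctp2 is at 4.41 and 4.06 in the macrophage-rich and 8.97 and 8.59 in the neutrophil-rich arrays.

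Of 27 measured genes of tissue macrophages, 14 were 2-fold higher in the macrophage-rich array of both mice and 0 were 2-fold lower. The median differences were 1.10 and 1.52, beside 0.00 and -0.02 over all genes. Of all genes, 3.03% were 2-fold higher and 1.87% 2-fold lower in both mice. Mertk, which binds dying cells for uptake, was at 9.37 and 6.11 in mouse 1 and at 9.20 and 6.35 in mouse 2. Ms4a7 differed by 3.17 and 2.74, and Msr1, a scavenger receptor, by 2.74 and 2.93. C1qb and C1qc encode the other chains of C1q and share the protein with C1qa, so that they repeat the grouping rather than add to it, and they differed by 2.31 and 2.44 and by 2.46 and 2.39. Csf1r, the receptor for the macrophage growth factor, was at 10.45 and 8.96 in mouse 1 and at 10.75 and 9.20 in mouse 2, and Cd68, a lysosomal glycoprotein, differed by 0.97 and 1.14. Adgre1, which encodes the macrophage antigen F4/80, was at 9.67 on both arrays of mouse 1 and at 9.91 and 9.35 on those of mouse 2. Members of the list also known from resident macrophages varied. Stab1 differed by 1.57 and 1.91, and Folr2 was at 5.81 and 5.21 in mouse 1 and at 6.64 and 5.84 in mouse 2. Of the 27, 5 lay below the array median on all 4 arrays, namely Cd163 at 4.70 to 4.95, Marco at 4.98 to 5.04, Cd5l at 4.08 to 4.45, Lyve1 at 5.09 to 5.49 and Vsig4 at 4.02 to 5.31, beside medians over all genes of 5.97 to 6.01. The neutrophil-rich arrays still held Msr1 at 9.23 and 8.93 and Mrc1 at 8.40 and 8.38.

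PU.1 binds purine-rich sites with the letters GAGGAAG, and the promoter of Mrc1 is shown because Mrc1 is among the 10 genes named above and its promoter carries these letters 2 times, on the strand opposite to the gene (CTTCCTC). The 250 bases before the RefSeq start of Mrc1 lie at chr2:14229164-14229413 (GRCm38.p6, plus strand), and the capitals mark the motif.
Mrc1: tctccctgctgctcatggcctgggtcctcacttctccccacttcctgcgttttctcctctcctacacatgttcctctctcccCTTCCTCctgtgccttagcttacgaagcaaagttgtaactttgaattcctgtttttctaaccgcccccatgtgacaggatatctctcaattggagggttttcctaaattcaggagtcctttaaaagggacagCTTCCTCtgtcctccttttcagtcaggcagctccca
Of the 22 genes of the macrophage list with a RefSeq promoter entry, 9 (40.9%) held GAGGAAG on either strand in this window, beside 1902 of 15614 genes of the table (12.2%), 78 of 490 of the genes higher in the macrophage-rich arrays (15.9%) and 59 of 291 of those higher in the neutrophil-rich arrays (20.3%). A match of letters is not a binding site. Spi1, which encodes PU.1, was at 8.87 and 8.98 in the macrophage-rich and neutrophil-rich array of mouse 1 and at 9.36 and 9.60 in those of mouse 2, so that it did not reach 2-fold in either mouse.

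In the other direction, the 10 named genes with the lowest differences in both mice were Mctp2, Retnlg, Slco4c1, Gpc3, Sycp2, Abca13, Car4, Csf3r, Slfn4 and Klra17, of which Retnlg, Csf3r and Slfn4 belong to the mature neutrophil list. Mctp2, a calcium-binding membrane protein, was at 4.41 in the macrophage-rich and 8.97 in the neutrophil-rich array of mouse 1 and at 4.06 and 8.59 in those of mouse 2, a mean difference of 23.4-fold. Retnlg, a resistin-like protein of neutrophils, was at 7.23 and 11.17 in mouse 1 and at 5.95 and 10.20 in mouse 2, a mean of 17.1-fold. For both genes, which were chosen by their differences, the neutrophil-rich arrays were far above the macrophage-rich arrays in each mouse. Slco4c1, an organic anion transporter, had differences of -3.93 and -5.00, Gpc3, a glypican, of -3.82 and -3.84, Sycp2, known from meiotic chromosomes, of -3.72 and -4.07, and Abca13 of -3.66 and -3.92. Car4, a membrane-bound carbonic anhydrase, was at 7.92 and 11.39 in mouse 1 and at 6.55 and 10.56 in mouse 2.

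Of 21 measured genes of mature neutrophils, 18 were 2-fold higher in the neutrophil-rich array of both mice and 0 in the macrophage-rich array, with medians of -2.34 and -2.31. Over all genes these shares were 1.87% and 3.03%. Csf3r, the receptor for G-CSF, was at 7.32 and 10.74 in mouse 1 and at 7.15 and 10.41 in mouse 2, a mean of 10.1-fold. Cxcr2, the receptor for neutrophil-attracting chemokines, was at 9.93 and 12.62 in mouse 1 and at 9.16 and 12.53 in mouse 2. The Cxcr2 signal of the macrophage-rich arrays was also well above their own medians over all genes. S100a8 and S100a9, which form calprotectin, had differences of -2.20 and -3.11 and of -1.82 and -2.67, Ly6g, the antigen used to sort mouse neutrophils, of -3.71 and -2.25, Slfn4 of -3.23 and -3.87, and Hdc, which makes histamine, of -2.72 and -3.32. The members short of 2-fold in a mouse were Ccrl2 (-2.03 and -0.52), Csta2 (-1.07 and -0.69) and Ltb4r1 (-0.78 and -0.47). All 21 were thus below 0 in both mice, beside 7216 of all 19937 genes. Csf3r is among the 10 genes named above and its promoter holds GAGGAAG, so the 250 bases before its start are shown with the motif in capitals (chr4:126024409-126024658, GRCm38.p6, plus strand).
Csf3r: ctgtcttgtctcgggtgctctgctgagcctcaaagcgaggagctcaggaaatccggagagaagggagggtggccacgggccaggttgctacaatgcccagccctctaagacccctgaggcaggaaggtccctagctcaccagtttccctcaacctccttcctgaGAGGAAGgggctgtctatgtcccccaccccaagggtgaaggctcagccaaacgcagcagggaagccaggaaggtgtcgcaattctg
The letters lie 86 to 80 bases before the start, and 7 of 20 mature neutrophil genes with an entry (35%) held them. The shares were 12.2% of all genes with an entry and 20.3% of those higher in the neutrophil-rich arrays.

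Of 16 measured granule genes, 5 were 2-fold higher in the neutrophil-rich array of both mice and 0 in the macrophage-rich array, with medians of -0.66 and -0.80. Over all genes these shares were 1.87% and 3.03%. The 5 were Lcn2, Ngp, Ltf, Olfm4 and Mmp9. Lcn2, which binds bacterial iron carriers, was at 6.04 and 9.38 in mouse 1 and at 7.10 and 9.07 in mouse 2. Ngp had differences of -2.06 and -2.59, and Mmp9, the gelatinase, of -1.62 and -2.55. Camp, Mmp8 and Mmp25 stayed under 2-fold in both mice, with differences of -0.17 and -0.10, of -0.89 and -0.71 and of -0.73 and -0.89. Chil3 (-0.36 and -1.03) and Cebpe (-0.78 and -1.15) passed 2-fold in mouse 2 only. Genes of the primary granules of promyelocytes were near or below the array medians on all 4 arrays, with Mpo at 5.35 to 5.98, Elane at 5.39 to 5.68, Prtn3 at 5.26 to 5.84 and Ctsg at 4.32 to 4.60. None of those 4 reached 2-fold in either mouse.

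MHC class II genes were higher in the macrophage-rich arrays. Of 9 measured, 6 were 2-fold higher in both mice and 0 were 2-fold lower, beside 3.03% and 1.87% of all genes. The medians were 2.09 and 1.88. H2-DMa, which helps to load peptides, was at 11.37 and 8.71 in mouse 1 and at 11.45 and 8.75 in mouse 2. Cd74, the invariant chain, was at 11.54 and 8.93 in mouse 1 and at 11.99 and 9.28 in mouse 2. The classical chains followed, with H2-Eb1 at 12.08 and 9.58 in mouse 1 and at 12.28 and 9.69 in mouse 2, and with differences of 1.99 and 1.88 for H2-Aa and of 2.09 and 1.82 for H2-Ab1. Ciita, the transactivator of this gene family, was at 8.07 and 5.97 in mouse 1 and at 8.14 and 6.14 in mouse 2. The remaining members were H2-Oa (0.65 and 0.71) and H2-Ob (-0.08 and -0.36), which modulate peptide loading and are known from B cells, and H2-Eb2 (0.18 and -0.28).

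Class II promoters share a Y box, CTGATTGG, that the factor NF-Y binds, and the promoters of H2-Eb1 and H2-Aa are shown. These 2 genes encode classical class II chains. They were chosen for the size of their differences among list members that hold the Y box, apart from genes on an excluded chromosome. The 250 bases before the start lie at chr17:34305617-34305866 on the plus strand for H2-Eb1 and at chr17:34287824-34288073 on the minus strand for H2-Aa (GRCm38.p6), and the capitals mark the Y box, 62 to 55 and 51 to 44 bases before the start.
H2-Eb1: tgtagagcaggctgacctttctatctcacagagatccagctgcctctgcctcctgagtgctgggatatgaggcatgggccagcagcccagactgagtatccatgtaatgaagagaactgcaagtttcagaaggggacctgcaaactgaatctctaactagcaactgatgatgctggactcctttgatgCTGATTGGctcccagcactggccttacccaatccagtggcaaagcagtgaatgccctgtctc
H2-Aa: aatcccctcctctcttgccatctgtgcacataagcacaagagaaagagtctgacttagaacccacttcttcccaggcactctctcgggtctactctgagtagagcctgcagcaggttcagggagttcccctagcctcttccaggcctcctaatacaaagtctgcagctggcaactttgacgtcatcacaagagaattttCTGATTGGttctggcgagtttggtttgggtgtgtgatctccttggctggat
Of the 6 class II genes with a promoter entry 4 (66.7%) held CTGATTGG on either strand, beside 808 of 15614 genes of the table (5.17%), 37 of 490 genes higher in the macrophage-rich arrays (7.55%) and 11 of 291 genes higher in the neutrophil-rich arrays (3.78%). Class II expression is also a property of dendritic cells and B cells. Of 13 dendritic cell markers, 2 were 2-fold higher in the macrophage-rich arrays, beside 3.03% of all genes, namely Clec10a (1.91 and 2.26) and Irf8 (1.52 and 1.62), both of which macrophages can express. Xcr1 (-0.44 and -0.75), Clec9a (-0.41 and -0.55), Ccr7 (-0.35 and -0.86) and Siglech (-0.38 and -0.50) had differences of the other sign. The part of dendritic cells in the class II values was not tested.

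Lysosomal genes were mostly higher in the macrophage-rich arrays, and none was 2-fold lower. Of 23 measured, 9 were 2-fold higher in both mice, beside 3.03% of all genes, with medians of 0.97 and 0.92. Lgmn, the protease legumain, had the largest differences of the list and was at 10.55 and 7.72 in mouse 1 and at 11.19 and 8.05 in mouse 2. Psap, the precursor of lipid-degrading activators, differed by 1.72 and 1.85, and the cathepsins Ctsz by 1.63 and 1.75 and Ctsh by 1.57 and 1.64. Ctsd, an abundant cathepsin, differed by 0.69 and 0.72, and Ctsk by 0.07 and -0.28.

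Of 16 measured genes of matrix and its proteases, 7 were 2-fold higher in the macrophage-rich array of both mice and 1 in the neutrophil-rich array, with medians of 0.92 and 1.07. Over all genes the shares were 3.03% and 1.87%. Beside Mmp13 the 7 were Fn1, Timp2, Mmp12, Tgfbi, Ecm1 and Plau. Fn1, fibronectin, was at 10.55 and 7.78 in mouse 1 and at 10.14 and 8.15 in mouse 2, and Mmp12, the macrophage elastase, at 12.35 and 10.41 and at 12.54 and 11.25. Timp2, an inhibitor of matrix proteases, differed by 1.46 and 1.81. Thbs1, thrombospondin, ran the other way with differences of -1.04 and -1.25. Of 15 genes of lipid and iron handling, 2 were 2-fold higher in the macrophage-rich arrays, the fatty acid carrier Fabp5 (1.86 and 2.18) and the heme-degrading enzyme Hmox1 (1.04 and 1.76). Tfrc, the transferrin receptor, was higher in the neutrophil-rich arrays (-1.89 and -1.52). These counts of 2 and 1 stood beside 3.03% and 1.87% of all genes. The lipoprotein lipase gene Lpl differed by 1.32 and 0.83 and the ferritin gene Ftl1 by 0.66 and 1.15, each past 2-fold in 1 mouse.

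Cell cycle genes were higher in the macrophage-rich arrays. Of 31 measured, 16 were 2-fold higher in both mice and 0 were 2-fold lower, beside 3.03% and 1.87% of all genes. The medians were 1.03 and 1.30. Kif11, a motor of the mitotic spindle, was at 7.86 and 5.31 in mouse 1 and at 7.94 and 5.76 in mouse 2, a mean of 5.16-fold. Top2a, which untangles chromosomes, was at 9.02 and 6.76 in mouse 1 and at 9.21 and 7.06 in mouse 2, and Bub1, of the spindle checkpoint, at 7.59 and 5.46 and at 7.92 and 5.94. These genes were named as leading members of the list, so the gap between the kinds of array follows from the choice. Cenpe, a kinetochore motor, differed by 2.15 and 1.90 and Birc5 by 2.37 and 1.73. In the list 29 of the 31 genes were above 0 in both mice, beside 6576 of all 19937 genes. Pcna, the replication clamp, was at 10.98 and 11.07 in mouse 1 and at 11.44 and 11.17 in mouse 2, and of the replication helicase genes Mcm5 differed by 0.15 and 0.07 and Mcm6 by 0.98 and 1.22. On the neutrophil-rich arrays 14 and 10 of the 31 genes lay below the array median, and on the macrophage-rich arrays 1 and 0. The Y box is also found in promoters of mitotic genes, and that of Cenpf (differences of 1.92 and 1.42) is shown with the motif on the strand opposite to the gene (CCAATCAG) in capitals, at chr1:189688087-189688336 (GRCm38.p6, minus strand).
Cenpf: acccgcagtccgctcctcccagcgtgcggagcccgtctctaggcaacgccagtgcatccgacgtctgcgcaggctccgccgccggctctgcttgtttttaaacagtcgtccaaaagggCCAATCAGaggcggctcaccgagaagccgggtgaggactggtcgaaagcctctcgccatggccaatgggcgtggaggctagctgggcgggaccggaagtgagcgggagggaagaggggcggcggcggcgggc
In this list 6 of 26 genes with an entry (23.1%) held the motif. The shares were 5.17% of all genes with an entry and 7.55% of those higher in the macrophage-rich arrays. Which cells of the sorted population were cycling was not tested.

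Cytokine genes were divided between the 2 kinds of array. Of 21 measured cytokines and mediators, 2 were 2-fold higher in the macrophage-rich arrays and 4 in the neutrophil-rich arrays, with medians of -0.16 and 0.06. Over all genes these shares were 3.03% and 1.87%. Arg1, the arginase of alternatively activated macrophages, was at 10.55 and 7.92 in mouse 1 and at 9.72 and 7.37 in mouse 2, a mean of 5.63-fold. Il6 was at 5.17 and 3.49 in mouse 1 and at 5.42 and 4.22 in mouse 2, and lay below the array median on all 4 arrays. Csf1, the growth factor bound by Csf1r, was higher in the neutrophil-rich arrays, at 6.25 and 9.14 in mouse 1 and at 6.80 and 9.41 in mouse 2. The differences of ligand and receptor therefore had opposite signs, while both genes lay above the array median on all 4 arrays. Il1a, which encodes IL-1α, was at 9.14 and 10.93 in mouse 1 and at 9.88 and 11.04 in mouse 2, and Ptgs2, the inducible cyclooxygenase, at 8.50 and 10.82 and at 8.33 and 9.89. Il1f9, which encodes IL-36γ, had differences of -3.81 in mouse 1 and -1.55 in mouse 2, and Il1b, abundant on all 4 arrays, of -0.93 and -0.83.

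Of 25 chemokines, 7 were 2-fold higher in the macrophage-rich array of both mice and 1 in the neutrophil-rich array, with medians of 0.26 and 0.49. Over all genes these shares were 3.03% and 1.87%. Ccl12, which attracts monocytes, was at 10.37 and 7.22 in mouse 1 and at 11.32 and 8.37 in mouse 2, a mean of 8.25-fold. Pf4, platelet factor 4, was at 11.60 and 8.69 in mouse 1 and at 11.88 and 9.05 in mouse 2, and Ppbp, its neighbour in the family, differed by 2.51 and 3.02. Cxcl16 differed by 2.84 and 2.43, Ccl17, which attracts T cells, by 2.76 and 2.37, and Ccl9 by 1.98 and 1.93. Ccl8, which attracts monocytes, varied more, at 6.35 and 4.77 in mouse 1 and at 8.24 and 5.12 in mouse 2. Ccl3, the macrophage inflammatory protein 1α, was higher in the neutrophil-rich arrays, at 9.12 and 11.62 in mouse 1 and at 9.49 and 10.77 in mouse 2, and Cxcl3, a ligand of Cxcr2, had differences of -2.12 and -0.99.

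**Figure D3:**
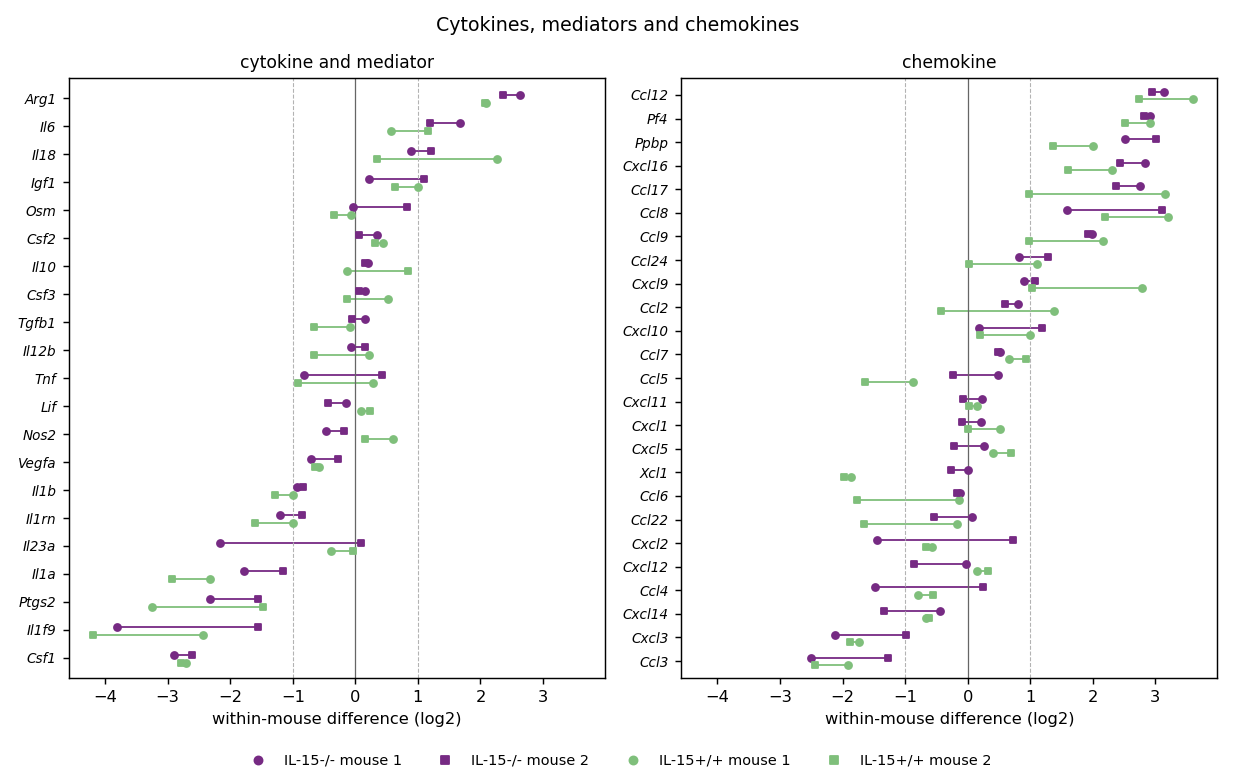
Within-mouse differences (log2, x axis) of each measured cytokine or mediator (left) and chemokine (right), with purple for IL-15-/- mice (macrophage-rich minus neutrophil-rich), green for IL-15+/+ mice (CD16/32HI minus CD16/32LO), circles for mouse 1, squares for mouse 2 and dashed lines at 2-fold. Arg1, Ccl12 and Pf4 lie to the right in all 4 mice and Csf1, Il1a and Ccl3 to the left, while Cxcl2 spans 0 in the IL-15-/- mice, at -1.44 and 0.73.

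Some genes ran differently in the 2 IL-15-/- mice. The genes named in this paragraph by their difference between the mice were chosen after their values were seen. Atf3, a stress-induced transcription factor, was at 7.81 and 7.91 in the macrophage-rich and neutrophil-rich array of mouse 1 and at 9.47 and 7.21 in those of mouse 2. Cxcl2, a ligand of Cxcr2, was at 10.65 and 12.09 in mouse 1 and at 11.33 and 10.60 in mouse 2, and Il23a at 5.80 and 7.97 and at 5.52 and 5.43. For Cxcl2 the order of the 2 kinds of array was thus turned between the mice. Differences also changed sign for Ccl4 (-1.48 and 0.24), Tnf (-0.83 and 0.43), Nfkbiz (-1.16 and 0.44), Tnfaip3 (-1.10 and 0.42) and Nfkbia (-0.70 and 0.38), the last 3 of which are feedback inhibitors or modulators of NF-kB. They changed sign too for genes of other kinds, such as Cd79a of the B cell receptor (0.12 and -1.65) and Fabp7, a fatty acid carrier (0.73 and -0.97), while the inducible genes Il1a, Il1b, Ptgs2 and Ccl3 had the same sign in both mice. Of 17 genes of the NF-kB list, 0 were 2-fold higher in the macrophage-rich arrays of both mice and 1, Gadd45b (-1.88 and -1.29), in the neutrophil-rich arrays, with medians of -0.34 and -0.01. Over all genes these shares were 3.03% and 1.87%, so the counts are near the share of all genes. Rela had differences of -0.60 and -0.45, Birc3 of -0.60 and -0.48 and Icam1 of -0.53 and -0.45.

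Pattern receptors were split between the kinds of array. Of 18 measured, 6 were 2-fold higher in the macrophage-rich arrays and 3 in the neutrophil-rich arrays of both mice, with medians of -0.29 and -0.13. Over all genes these shares were 3.03% and 1.87%. Tlr8 was at 8.21 and 6.05 in mouse 1 and at 8.20 and 6.34 in mouse 2, Tlr1, a partner of Tlr2, at 10.12 and 8.55 and at 10.61 and 8.63, and Tlr2, Tlr3, Tlr7 and Ly96 made up the rest of the 6. The 3 higher in the neutrophil-rich arrays were Cd14 (-1.41 and -1.10), the adaptor Myd88 (-1.11 and -1.16) and the lectin Clec5a (-1.02 and -1.25). Tlr4, which senses lipopolysaccharide with Cd14 and Ly96, had differences of -0.64 and -0.53. The receptor thus lay between its cofactors, of which Ly96 was higher in the macrophage-rich (1.24 and 1.05) and Cd14 in the neutrophil-rich arrays.

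Of 19 interferon targets, 1 was 2-fold higher in the macrophage-rich arrays and 2 in the neutrophil-rich arrays of both mice, with medians of -0.25 and -0.12, and over all genes these shares were 3.03% and 1.87%. Oasl2 was at 6.52 and 8.94 in mouse 1 and at 6.32 and 8.67 in mouse 2, and Rtp4 differed by -1.22 and -1.65. Gbp3, a guanylate-binding protein, was at 7.24 and 5.96 in mouse 1 and at 7.53 and 6.39 in mouse 2. These 3 genes aside, the 19 targets stayed under 2-fold in at least 1 mouse. Of 21 transcription factors of myeloid cells, 2 were higher in the macrophage-rich arrays, Cebpa (1.62 and 1.92) and Tfec (2.18 and 1.55), and 2 in the neutrophil-rich arrays, Cebpd (-1.03 and -1.04) and Bhlhe40 (-1.26 and -1.09), beside the same 3.03% and 1.87%. Of 21 genes of hypoxia and glycolysis, 0 were higher in the macrophage-rich and 2 in the neutrophil-rich arrays, namely Egln3, an oxygen-sensing hydroxylase, at 7.98 and 10.81 in mouse 1 and at 7.39 and 10.52 in mouse 2, and the glucose transporter Slc2a3 (-1.03 and -1.09), where 3.03% and 1.87% of all genes did so. The glycolytic enzyme Ldha differed by 0.20 and 0.04.

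The label of malignant large granular lymphocytes was checked against the genes of these cells. Of 16 measured genes of NK cells and large granular lymphocytes, 0 were 2-fold higher in either kind of array in both mice. The medians were 0.21 and -0.29. Of the 16, 11 lay below the array median on all 4 arrays, a share not counted over all genes. Of all genes, 3.03% were 2-fold higher in the macrophage-rich and 1.87% in the neutrophil-rich arrays. Gzmb, whose human promoter drives Tax, was at 4.84 and 4.50 in the macrophage-rich and neutrophil-rich array of mouse 1 and at 4.81 and 5.40 in those of mouse 2, and Gzma at 4.57 and 4.01 and at 4.13 and 4.37. The highest value of any member on the 4 arrays was 7.04, for Klrd1. The list does not hold Klrb1b, the lectin-like receptor named above. Klrb1b was at 10.59 and 7.22 in mouse 1 and at 10.75 and 7.59 in mouse 2. Nkg7, a granule membrane protein, was at 5.26 and 5.68 in mouse 1 and at 5.02 and 6.13 in mouse 2, Klrc1 had differences of -0.12 and -0.92, Eomes of -0.49 and -0.60 and Ctsw of -0.31 and -0.47.

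Of 17 T cell genes, 1 was 2-fold higher in the neutrophil-rich array of both mice and 0 in the macrophage-rich array, with medians of -0.03 and -0.20, beside 1.87% and 3.03% of all genes. It was Cd3d of the T cell receptor complex, at 4.92 and 6.46 in mouse 1 and at 5.22 and 7.06 in mouse 2, and Cd3g was at 5.83 and 6.55 in mouse 1 and at 5.79 and 7.79 in mouse 2. Cd8a stayed between 5.53 and 5.63 and Cd8b1 between 5.18 and 5.44 on the 4 arrays. Of 10 B cell genes, 1 was 2-fold higher in the neutrophil-rich arrays, beside 1.87% of all genes. It was Ms4a1, which encodes CD20, at 4.37 and 5.54 in mouse 1 and at 4.38 and 6.52 in mouse 2, and Cr2 had differences of -0.40 and -1.57. Cd3g and Cr2 were thus past 2-fold in mouse 2 and short of it in mouse 1.

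**Figure D4:**
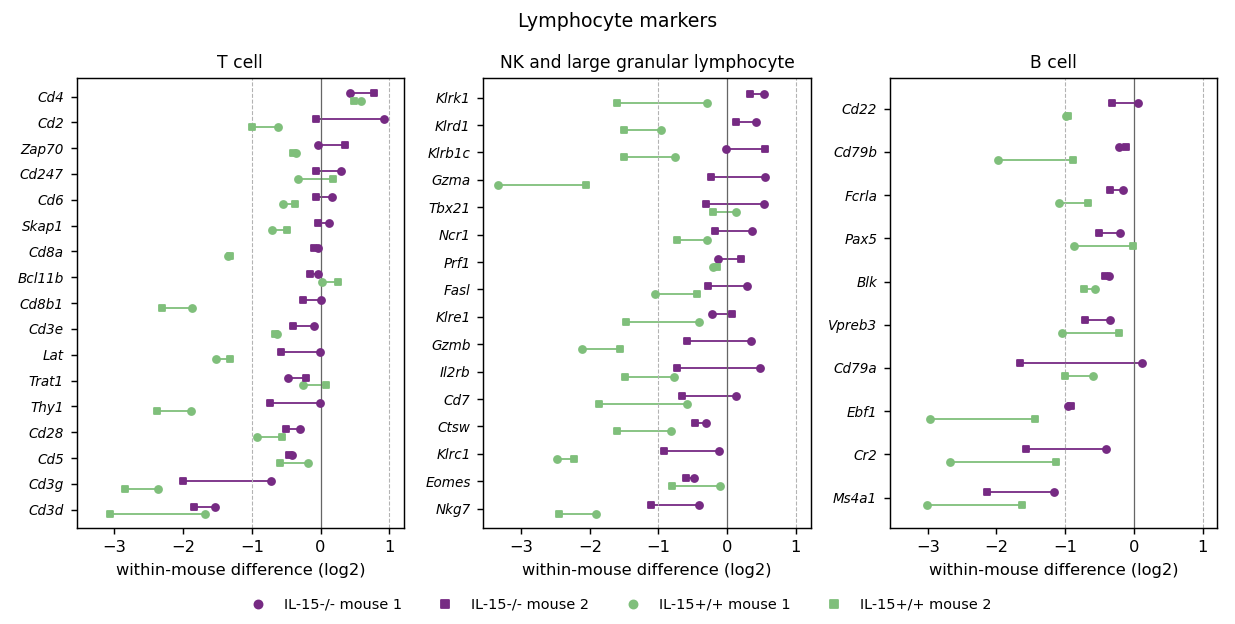
Within-mouse differences (log2, x axis) of each measured T cell, NK and large granular lymphocyte, and B cell gene, with purple for IL-15-/- mice (macrophage-rich minus neutrophil-rich), green for IL-15+/+ mice (CD16/32HI minus CD16/32LO), circles for mouse 1, squares for mouse 2 and dashed lines at 2-fold. Gzma lies at -3.34 and -2.06 in the IL-15+/+ mice and at 0.55 and -0.24 in the IL-15-/- mice, and Cd3d lies to the left in all 4 mice.

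Among 11 markers of mast cells, basophils and eosinophils, 8 lay below the array median on all 4 arrays, a share not counted over all genes. In the neutrophil-rich arrays 1 was 2-fold higher in both mice, beside 1.87% of all genes. The 1 was Siglecf, a receptor best known from eosinophils, at 6.74 and 9.79 in mouse 1 and at 6.69 and 9.46 in mouse 2, while the eosinophil granule genes Prg2 (4.53 to 5.19) and Epx (4.50 to 4.98) lay below the medians of the 4 arrays. Of 11 epithelial, 11 stromal and endothelial and 3 erythroid markers, 0 were 2-fold different in both mice. Of all genes, 3.03% were so in one direction and 1.87% in the other. Dcn, decorin of fibroblasts, was at 5.77 and 5.75 in mouse 1 and at 9.25 and 10.45 in mouse 2. The collagen genes Col1a1 (6.39 to 6.75) and Col3a1 (5.60 to 5.94) stayed within a narrow range on the 4 arrays.

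The IL-15+/+ arrays, which the C1qa grouping did not use, gave a test by label. In limma within mice (n = 2 mice), 986 of 19937 genes (4.95%) were called higher in the IL-15+/+ CD16/32HI arrays and 1155 (5.79%) higher in the IL-15+/+ CD16/32LO arrays at a Benjamini-Hochberg adjusted p under 0.05. The calls were fewer without the mouse as a block (282 and 352) and numbered 0 in each direction with all 8 arrays in 1 fit, in which 1252 genes had an unadjusted p under 0.05 and in which the oppositely labelled mouse 1 enters the estimate of the spread. Among the genes named from the fit within mice, Pf4 rose in CD16/32HI by 2.71 on the log2 scale (SE 0.197, limma adjusted p = 1.831e-05), Depdc7 by 2.66 and Cpq, a plasma carboxypeptidase, by 2.55. The IL-15-/- arrays gave 2.91 and 2.83 for Pf4, 2.68 and 2.94 for Depdc7 and 2.55 and 2.51 for Cpq. In the other direction Ceacam10 had a log2 difference of -3.99 in IL-15+/+ tumors (SE 0.25, limma adjusted p = 1.004e-05), Adam28 of -3.82 and Hp, haptoglobin, of -3.65, and the IL-15-/- arrays gave -3.10 and -4.42, -3.15 and -3.92, and -2.97 and -2.50. For these 6 genes all 4 mice thus had the same sign.

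The genes higher in the macrophage-rich IL-15-/- arrays were largely those called in IL-15+/+ CD16/32HI cells. Of the 604, 498 were called higher in CD16/32HI cells (82.5% of the 604 and 50.5% of the 986), and 0 were called higher in CD16/32LO cells. Of the 373, 351 were called higher in CD16/32LO cells (94.1% of the 373 and 30.4% of the 1155), and 0 in CD16/32HI cells. No gene was 2-fold one way in both IL-15-/- mice and 2-fold the other way in both IL-15+/+ mice. By list, 16 of 27 macrophage genes, 17 of 31 cell cycle genes, 9 of 23 lysosomal genes, 6 of 9 MHC class II genes, 9 of 16 matrix genes, 9 of 25 chemokines and 4 of 21 cytokines were called higher in CD16/32HI cells, beside 4.95% of all genes. In CD16/32LO cells 20 of 21 mature neutrophil genes, 8 of 16 granule genes, 6 of 21 cytokines, 5 of 25 chemokines, 5 of 21 genes of hypoxia and glycolysis and 2 of 16 matrix genes were called higher, beside 5.79% of all genes, as were 1 lysosomal and 1 MHC class II gene, while 1 granule gene was called higher in CD16/32HI cells. Other lists were split. Of 13 dendritic cell markers 2 were called higher in CD16/32HI and 6 in CD16/32LO cells, and of 19 interferon targets 1 and 6. For 21 myeloid transcription factors the counts were 4 and 6, and for 18 pattern receptors 7 and 5. The lists were chosen with these data known, so the counts are a description.

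**Figure D5:**
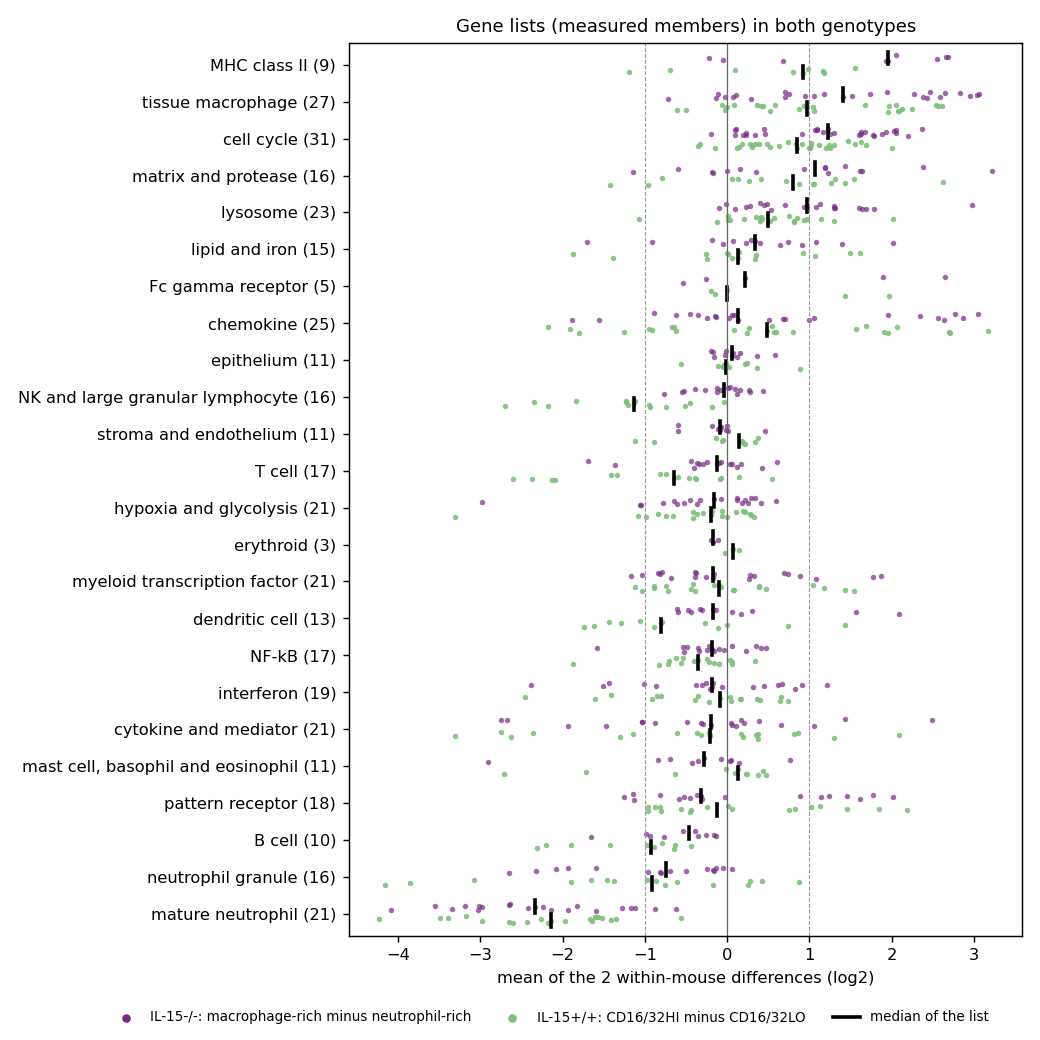
Mean of the 2 within-mouse differences (log2, x axis) of each measured gene of 24 lists, with the number of measured genes in brackets, purple for IL-15-/- mice (macrophage-rich minus neutrophil-rich), green for IL-15+/+ mice (CD16/32HI minus CD16/32LO), a black bar for the median of each list and dashed lines at 2-fold. MHC class II, macrophage and cell cycle genes lie highest and mature neutrophil genes lowest in both genotypes, while the NK list lies near 0 in IL-15-/- and below 0 in IL-15+/+ mice.

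In IL-15+/+ tumors 12 of 16 NK and large granular lymphocyte genes, 8 of 17 T cell genes and 7 of 10 B cell genes were called higher in CD16/32LO cells, beside 5.79% of all genes. In CD16/32HI cells 0 of them were called higher, beside 4.95% of all genes. These counts are limma calls, while the IL-15-/- counts above are of genes 2-fold apart in both mice with no test. The counts of the 2 genotypes are therefore not comparable. IL-15 is required for NK cells and for memory CD8+ T cells. Gzma was at 5.46 and 8.80 in the CD16/32HI and CD16/32LO array of IL-15+/+ replicate 1 and at 5.31 and 7.37 in those of replicate 2 (log2 -2.70, SE 0.268, limma adjusted p = 9.475e-05), against 4.01 to 4.57 on the 4 IL-15-/- arrays. Cd8b1 was at 5.72 and 7.60 in IL-15+/+ replicate 1 and at 5.82 and 8.13 in replicate 2, and Xcl1, a chemokine of NK and CD8+ T cells, at 6.53 and 8.39 and at 6.82 and 8.79. On the 4 IL-15-/- arrays Xcl1 stayed between 5.73 and 5.99. The CD16/32LO cells of IL-15+/+ tumors thus held these transcripts above both kinds of IL-15-/- array, and of the 4 IL-15+/+ arrays those of replicate 1 shared a normalization set with mouse 1. The malignant label was on the CD16/32HI arrays, where Gzmb was at 6.18 and 4.87 against 8.29 and 6.43 on the CD16/32LO arrays. No test was made of the difference between genotypes.

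Some genes were 2-fold apart in both IL-15-/- mice but not in both IL-15+/+ mice. They were chosen after their values were seen, and the difference between genotypes was not tested. Inpp4b, a phosphatase of inositol lipids, was at 7.91 and 5.34 in the macrophage-rich and neutrophil-rich array of mouse 1 and at 8.43 and 5.87 in those of mouse 2, while the IL-15+/+ differences were 0.76 and 1.09. Kbtbd11 differed by 1.89 and 1.78 in the IL-15-/- mice and by -0.05 and 0.45 in the IL-15+/+ mice. F13a1, the coagulation factor XIII chain made by macrophages, differed by 1.10 and 1.24 in the IL-15-/- mice and by -0.27 and -0.73 in the IL-15+/+ mice.

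By the deposited labels the 4 IL-15-/- arrays gave no call. In limma within mice 0 of 19937 genes (0%) passed between the CD16/32HI and CD16/32LO arrays of IL-15-/- tumors, and 11 had an unadjusted p under 0.05. At 2-fold the same way in both mice, 0 genes were higher in either labelled population. Of the 2141 genes called in IL-15+/+ tumors, 94.9% had the same sign by label in mouse 2 and 4.44% in mouse 1. The smallest limma adjusted p by label was 1.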

How the data were processed

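The deposited table holds log2 signals per probe set of the Affymetrix Gene Chip Whole Transcript 1.0ST array, which the authors made from RNA of sorted tumor cells with RMA in Affymetrix Expression Console (versions not given in the sources used here). Of its 35557 probe sets 21789 carried exactly 1 gene symbol, 1621 several and 12147 none. For each of 19938 genes the probe set with the highest mean over the 8 arrays was kept, and C1qa was then removed. Groups came from the labels, except that the IL-15-/- arrays were grouped by C1qa. A gene was counted where the macrophage-rich and the neutrophil-rich array of a mouse differed by at least 2-fold (log2 of 1) the same way in both mice, with no test. The IL-15+/+ arrays and, by label, the IL-15-/- arrays were tested separately with limma 3.58.1 in R 4.3.3 with the mouse as a block, Benjamini-Hochberg adjusted over all genes. The study's own methods named a 1-way ANOVA with a fold filter. Replicate numbers were taken to pair arrays of the same tumor-bearing mouse. Deviations of the 2 mice correlated between the paired arrays (r = 0.359 in IL-15+/+ and 0.620 in IL-15-/- arrays). Both arrays of a replicate also lay in the same normalization set, and the 2 replicates of a genotype in different sets. The r therefore cannot show that paired arrays share a mouse. The number of arrays limits the precision, and with 2 mice a fit has 1 residual degree of freedom. In a simulation of the IL-15+/+ comparison on 19937 genes with 200 changed, 88% of the changes of log2 1 and 100% of those of log2 2 were recovered, and 27 of 221 calls (12.2%) were unchanged genes, more than the threshold of 0.05 allows. Named genes were the 10 with the highest smaller-of-2 difference in each direction, the 10 most different called genes of IL-15+/+ tumors in each direction, up to 4 leading members of each of 24 lists and up to 2 opposed, Il15 and the Fc gamma receptors. Further genes, most of them list members, were named after their values were seen, and predicted genes were not named. Of 427 list genes 397 were measured, and the rest are not analysed here. The members and lists were chosen with earlier results of these data known. Promoters are the 250 bases before the start in RefSeq (GRCm38.p6), and a gene with several entries counted once.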

Additional observations from a re-analysis of the deposited data

Results flagged for a closer look

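For 7 named genes both IL-15-/- mice lay on one side of 0 and both IL-15+/+ mice on the other, when the macrophage-rich minus neutrophil-rich difference is set beside the CD16/32HI minus CD16/32LO difference. The share of all genes with this pattern was not counted, so the number 7 is no result about these genes as a group. The difference between genotypes was not tested, sex and genotype cannot be told apart, and groups of 2 arrays allow no check for single outlying arrays. F13a1 had a mean log2 difference of 1.17 in the IL-15-/- mice and differences of -0.27 and -0.73 in the IL-15+/+ mice. Klrd1, a receptor chain of NK cells, had a mean of 0.27 beside -0.96 and -1.50, and Mpo, the myeloperoxidase of primary granules, a mean of -0.25 beside 0.41 and 1.34. Vsig4, a complement receptor of macrophages, had a mean of -0.71 beside 0.75 and 0.07. The other 3 are markers of other tissues and stayed small in the IL-15-/- mice, with means of -0.114 for Col1a1, -0.0889 for Pdgfra and 0.0721 for Trp63. Only F13a1 of the 7 reached 2-fold in both IL-15-/- mice.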

How the results depend on the processing

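For the IL-15-/- arrays, 3-fold in place of 2-fold left 232 genes higher in the macrophage-rich and 136 higher in the neutrophil-rich arrays, and the deposited labels in place of C1qa left 0 and 0. With 1 mouse left out the counts were 737 to 828 and 488 to 523, and without the mouse as a block (no overlap between the kinds of array by at least 2-fold) 457 and 299. The other settings gave 536 to 641 and 326 to 406. For the IL-15+/+ arrays, limma without the replicate block called 282 genes higher in CD16/32HI and 352 higher in CD16/32LO cells, and all 8 arrays in 1 fit called 0 and 0, a fit that holds the oppositely labelled mouse 1. The other settings called 880 to 1271 and 1021 to 1290. With 1 IL-15+/+ mouse alone no test is possible, and 615 to 622 and 598 to 710 genes passed 2-fold in the other. By label the IL-15-/- arrays gave 0 calls in every limma setting run, and 1 mouse alone held 1225 to 1351 genes past 2-fold either way, with no test. Centring moved a named gene by at most 0.04 and quantile normalization by at most 0.11. Of 119 list medians under these settings 3 had the other sign, that of the cytokine list without replicate 1 (0.06) and that of the NK list without replicate 2 (0.21) and over the brighter genes (0.04). The cause of these changes was not tested. Array signal cannot tell low genes from background.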
